A study of Mus musculus with 2 samples.

Results

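A group of 10 immediate early and AP-1 genes was followed in the embryonic mouse limb, namely Fos, Fosb, Jun, Junb, Jund, Egr1, Ier2, Atf3, Zfp36 and Dusp1. They were chosen by name from the known gene families, and all 10 were found among the 55536 gene entries quantified. RNA came from limbs of embryos of the B6NCrl strain at 12.5 days of development, with no treatment and no altered allele named in the labels. The single group holds 2 biological replicates, a pool of 88 embryos (replicate 1) and a pool of 68 embryos (replicate 2), both of mixed sex. Each library started from 10 ng of RNA, primed with oligo-dT and carrying ERCC spike-in RNA. No second condition was compared, so differences are between these 2 libraries or between genes, and p-values compare these 2 pools only, not conditions. Levels are in TPM, a share of all transcripts that allows for their length and for sequencing depth, and were taken from the authors' quantification with GENCODE M21 (mm10). They are given per library and as mean ± SD (n = 2).

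Immediate early genes are transcribed within minutes of a growth factor, depolarisation or stress signal, from factors already present in the cell, without new protein synthesis. Serum response factor with its ternary complex partners, and CREB, are the classic activators at their promoters. The Fos and Jun proteins carry a basic region and a leucine zipper and bind DNA as the dimer AP-1. Jun proteins can pair with one another, whereas Fos proteins need a Jun partner. Most of these mRNAs are short lived, and AU-rich elements in their 3′ UTRs are bound by decay factors, one of which is the product of the member Zfp36. In the limb, AP-1 is known for roles in cartilage and bone, and Dusp phosphatases for restraining MAP kinase signalling downstream of FGF.

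The promoters of 4 members are shown because they carry letters that match elements through which signals are known to reach such genes. Each is the 250 bases before the RefSeq start, from RefSeq on GRCm38.p6, which is mm10, written 5′ to 3′ on the strand of the gene. Capitals mark TGACG and TATAA in Fos, TGACATCA in Jun, TGACG and TGACGTCA in Dusp1, and the CArG box in Zfp36.
Fos (chr12:85473640-85473889, plus strand): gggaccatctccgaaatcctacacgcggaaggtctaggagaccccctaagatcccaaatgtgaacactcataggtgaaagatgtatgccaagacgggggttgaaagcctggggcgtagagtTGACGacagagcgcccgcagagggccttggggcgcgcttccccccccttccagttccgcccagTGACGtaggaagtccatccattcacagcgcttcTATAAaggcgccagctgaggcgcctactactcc
Jun (chr4:95052223-95052472, minus strand): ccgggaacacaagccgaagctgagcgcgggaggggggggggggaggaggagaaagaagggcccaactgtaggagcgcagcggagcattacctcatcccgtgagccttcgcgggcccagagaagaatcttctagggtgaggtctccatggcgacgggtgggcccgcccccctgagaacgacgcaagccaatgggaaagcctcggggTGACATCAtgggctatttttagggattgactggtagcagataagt
Dusp1 (chr17:26508473-26508722, minus strand): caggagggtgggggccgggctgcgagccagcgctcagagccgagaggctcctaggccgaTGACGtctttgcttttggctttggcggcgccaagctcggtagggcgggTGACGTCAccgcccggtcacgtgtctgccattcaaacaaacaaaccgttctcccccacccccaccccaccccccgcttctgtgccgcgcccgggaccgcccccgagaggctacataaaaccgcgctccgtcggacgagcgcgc
Zfp36 (chr7:28379229-28379478, minus strand): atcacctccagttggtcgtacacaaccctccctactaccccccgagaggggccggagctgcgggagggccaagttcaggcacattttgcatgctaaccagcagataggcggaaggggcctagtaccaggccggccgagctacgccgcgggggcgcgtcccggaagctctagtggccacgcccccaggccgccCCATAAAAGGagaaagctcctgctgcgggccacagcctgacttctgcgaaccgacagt

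Promoter windows of 300 bases (250 before and 50 after the start) were found for 8 of the 10 members, all but Egr1 and Ier2. In these windows 8 motifs were searched on both strands. Sites further from the start were not searched, so a motif missing here may lie outside the window. The CArG box, the serum response factor motif, was found in Zfp36 alone among the 8, and in 1.63% of the 32851 windows of the table. It began 58 bases before the start. The full cAMP response element TGACGTCA was found in Dusp1 alone, 143 bases before the start, against 1.79% of all windows. Its shorter form TGACG, which lies inside the full element, was found in 5 of 8 members (Fos, Fosb, Junb, Atf3 and Dusp1) against 20.8% of all windows. In Fos it began 129 and 66 bases before the start, and TATAA followed at 33. The AP-1-like element TGACATCA was found in Jun alone, 45 bases before the start, against 3.62% of windows. The AP-1 pattern TGANTCA, which allows any middle base and so is broader than the canonical site, was in none of the 8 windows and in 7.81% of all. TATAA was in Fos and Junb (24.9% of all windows). In Junb it began at the RefSeq start base itself, which lies 30 nt before the M21 start of Junb. The EGR motif GCGNGGGCG was in Fosb and Zfp36 (5.55%), and the GC box GGGCGG in 6 of the 8 members, all but Junb and Jund (35.7%). The Jund window surrounds a RefSeq start 1210 nt before the M21 start of Jund. Bases at that M21 start were therefore not searched. These matches are a description of letters in one window and no measure of binding.

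The AU pentamer ATTTA, the core of the elements that decay factors recognise, was counted in the 3′ UTRs. It occurred in 9 of 10 members, all but Ier2, against 64.6% of 12535 protein-coding genes measured. The median density was 2.89 pentamers per kb in the members and 1.20 over those genes. The nonamer TTATTTATT, the preferred target of Zfp36, occurred in Fos (1 copy), Zfp36 (1 copy) and Dusp1 (2 copies), against 6.71% of genes. A window of 30 bases of mm10 is shown for each of these 3 and for Jun, which has pentamers without the nonamer. The capitals mark ATTTA.
Fos (chr12:85477100-85477129, plus strand): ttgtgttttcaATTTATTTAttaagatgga
Zfp36 (chr7:28376958-28376987, minus strand): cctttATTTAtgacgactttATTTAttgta
Dusp1 (chr17:26506157-26506186, minus strand): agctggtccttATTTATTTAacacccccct
Jun (chr4:95049207-95049236, minus strand): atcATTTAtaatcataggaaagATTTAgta

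Depth was similar in both libraries, with 29633457 and 30118921 expected reads on genes, and spike-ins took 3.19% and 2.24% of reads. All 6 limb field markers reached 1 TPM in both libraries. So did 22 of 24 markers of other cell types, with the exceptions of Alb (liver) and Nkx2-5 (heart, 0 reads). Of the limb identity genes, Tbx5 of the forelimb stood at 39.96 TPM in replicate 1 and 28.38 in replicate 2. Pitx1 of the hindlimb stood at 135.56 and 163.98. Neither was called by the rule with a 2-fold minimum described further on. Both passed it with no fold minimum (adjusted p = 8.01e-32 for Tbx5 and 3.68e-27 for Pitx1 by its exact binomial test). In all, 5 of the 6 limb field markers did so, against 19.0% of all genes tested. Summed neuron markers stood at 20.93 and 27.41 TPM, with Tubb3 and Stmn2 higher in replicate 2 and Dcx lower, and summed liver markers at 7.19 and 4.8 TPM. The part of these differences in any difference of the members was not tested. In bulk tissue, fewer cells of a type and less RNA per cell cannot be told apart.

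The 10 members spanned nearly 3 orders of magnitude, from 3 abundant genes through intermediate and low levels to Fosb. Ier2, Jund and Jun together held 89.1% ± 0.247 of the members' summed level, which was 310.87 TPM in replicate 1 and 312.95 in replicate 2. Of the members, 9 reached 1 TPM in both libraries, a level met by 27.3% of all genes and 58.1% of protein-coding genes. The median of all 10 members was 6.51 TPM, beside 3.88 for all 22028 protein-coding genes and 22.4 for those at 1 TPM in both libraries. Fosb was the member under 1 TPM.

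**Figure D1:**
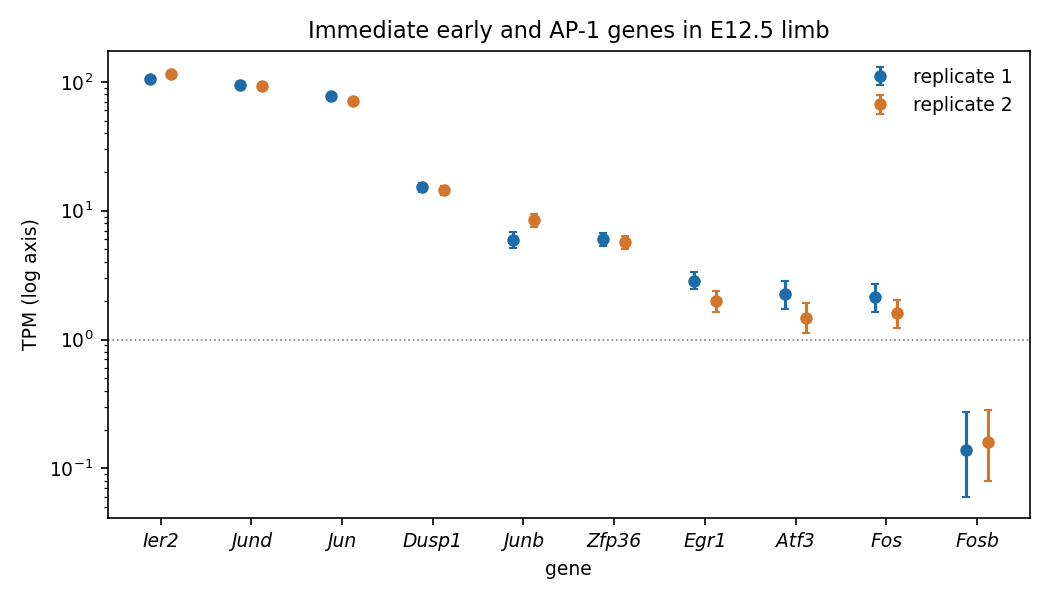
TPM (log axis) of each member in replicate 1 (blue) and replicate 2 (orange), ordered by mean. Bars are 95% exact Poisson intervals of the read count, which cover counting error only, and the dotted line is 1 TPM. Ier2, Jund and Jun lie between 70.74 and 115.07 TPM, and Fosb lies at 0.14 and 0.16.

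Among the Jun genes, Jund and Jun were abundant and Junb was not. Jun, the founding AP-1 subunit and a strong activator (chr4:95049034-95052222, minus strand), stood at 77.03 TPM in replicate 1 and 70.74 in replicate 2, a mean of 73.9 ± 4.45. Jund, a subunit that many resting cells express (chr8:70698949-70700616, plus strand), stood at 94.76 and 93.48 TPM, a mean of 94.1 ± 0.905. Junb, a weaker activator that can restrain Jun (chr8:84974484-84978718, minus strand), stood at 5.95 and 8.39 TPM, a mean of 7.17 ± 1.73. Junb was the lowest of the family in each library. Jun exceeded Junb 10.3-fold and Jund exceeded it 13.1-fold on TPM, beyond the spread of genes of like level. That spread is the size of log2 difference between libraries that 95% of the 500 genes nearest in level stay under, 0.61 at the level of Junb. With 2 values a gene, no exact test by permutation can reach 0.05, so this spread served as the yardstick.

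The Fos genes were low throughout. Fos, the prototype partner of Jun (chr12:85473890-85477273, plus strand), stood at 2.13 and 1.60 TPM, a mean of 1.87 ± 0.375, from 66 and 64 reads. The read numbers were nearly equal although the TPM differed. In replicate 1, 6.60 of the reads were assigned to the short non-coding entry, which made up 29.6% of the gene's TPM there and 0% in replicate 2. The coding entry alone stood at 1.5 and 1.60 TPM. Fosb (chr7:19302696-19310051, minus strand), a Fos relative with an activating and a truncated form, stood at 0.14 and 0.16 TPM, from 8 and 11 reads. Their 95% exact Poisson intervals, 3.45 to 15.8 and 5.49 to 19.7 reads, overlapped widely. Of the relatives outside the 10 members, Fosl2 stood at 1.11 and 0.95 TPM, between Fos and Fosb, and Fosl1 at 0.16 and 0.13. Fosl2 and Fos did not differ beyond the spread.

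RNA of the Jun family exceeded that of the Fos family in both libraries. Jun, Junb and Jund summed to 177.74 TPM in replicate 1 and 172.61 in replicate 2. Fos, Fosb, Fosl1 and Fosl2 summed to 3.54 and 2.84 TPM. The ratio was 50.2-fold and 60.8-fold, a log2 ratio of 5.65 and 5.93 against a spread of 0.99. Within the Jun family Jund held 53.7% ± 0.596 of the TPM with M21, Jun 42.2% ± 1.67 and Junb 4.10% ± 1.07. With M4, the other annotation the authors used, the order of the first pair turned, and Jun held 58.9% ± 2.11, Jund 35.5% ± 0.639 and Junb 5.64% ± 1.47. Within the Fos family Fos held 58.3% ± 2.71, Fosl2 32.4% ± 1.48, Fosb 4.79% ± 1.19 and Fosl1 4.55% ± 0.0408 with M21. With M4 the shares were 49.7% ± 5.18 for Fos, 23.0% ± 0.576 for Fosl2, 2.98% ± 0.797 for Fosb and 24.3% ± 4.96 for Fosl1. Fosl1 had 2.09 and 1 reads with M21 but 26 and 31 with M4, where it stood at 0.86 and 1.02 TPM. The ratio of the families with M4 was 32.5-fold and 35.5-fold. The single pair of Jun and Fos differed 39.6-fold. These are RNA levels and say nothing of the dimers present.

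The other transcription factors and the small nuclear regulator Ier2 covered the whole range. Ier2, an immediate early gene whose product enters the nucleus (chr8:84661331-84662852, minus strand), was the most abundant member, with 104.56 and 115.07 TPM, a mean of 109.8 ± 7.43. It lay above 93.2% of protein-coding genes and 8.71-fold above its relative Ier5. Egr1, a zinc finger factor induced by serum and nerve growth factor (chr18:34859823-34864984, plus strand), stood at 2.86 and 1.98 TPM, a mean of 2.42 ± 0.622, from 173 and 120 reads. Its relatives were lower, Egr2 with 8 reads in each library (0.19 and 0.15 TPM) and Egr3 with 4 (0.05 TPM in each, and listed at 0 with M4). Egr4 was without reads, for which the limit of 3 reads comes to 0.0742 TPM in replicate 1 and 0.0734 in replicate 2. Atf3, a stress-induced factor that pairs with Jun proteins (chr1:191170296-191218039, minus strand), stood at 2.25 and 1.48 TPM, a mean of 1.87 ± 0.544, from 66 and 55 reads. Atf4, the upstream factor of the integrated stress response, was 47.3-fold above it.

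The feedback inhibitors Dusp1 and Zfp36 were at intermediate levels, below the main genes of their families. Dusp1, a nuclear phosphatase of MAP kinases (chr17:26505590-26562128, minus strand), stood at 15.17 and 14.38 TPM, a mean of 14.8 ± 0.559. Dusp6, a cytoplasmic phosphatase of MAP kinases, was 6.37-fold above Dusp1. Zfp36, the RNA-binding decay factor tristetraprolin (chr7:28376784-28380253, minus strand), stood at 6.02 and 5.67 TPM, a mean of 5.85 ± 0.247. Its relatives Zfp36l1 and Zfp36l2 stood 11.5-fold and 4.09-fold above it. All 3 differences passed the spread.

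Of the 9 neighbouring pairs in the order of levels, 4 differed beyond the spread. Jund lay above Jun (1.27-fold, but below it with the M4 annotation described further on), Jun above Dusp1 (5.00-fold), Dusp1 above Junb (2.06-fold) and Fos above Fosb (12.4-fold). Ier2 and Jund did not, with a log2 ratio of 0.14 in replicate 1 against a spread of 0.21. Junb and Zfp36 stood in opposite orders in the 2 libraries, and so did Atf3 and Fos. Zfp36 and Egr1 had log2 ratios of 1.07 and 1.52 against a spread of 1.13, and Egr1 and Atf3 stayed within it. The protein-coding genes nearest in level, by distance of log2(TPM + 1) over the 2 libraries, were Pdap1 for Ier2 (103.2 and 115.93 TPM) and Col24a1 for Fos (2.14 and 1.62 TPM). For Fosb, 7 genes were tied at 0.14 and 0.16 TPM, Mixl1 among them.

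No member differed between the libraries by the rule used for all genes. That rule was an exact two-sided binomial test on read counts with adjusted p under 0.05 over 15926 genes and at least a 2-fold ratio of TPM. It called 0 of the 9 members tested, against 163 genes in all (1.02%). With no fold minimum, 4 members passed at adjusted p under 0.05, against 19.0% of all genes. Junb was higher in replicate 2, by 0.43 on the log2(TPM + 1) scale (adjusted p = 0.00253 by the exact binomial test). Ier2 was also higher in replicate 2, by 0.14 (adjusted p = 0.00251 by that exact test). Jun and Egr1 were higher in replicate 1, with log2 values of -0.12 and -0.37 for replicate 2 over replicate 1 (adjusted p = 0.000536 and 0.0128 by that exact test). The binomial test covers counting error only. With edgeR's exact negative binomial test, whose dispersion was estimated from these same 2 libraries, no member passed (lowest adjusted p = 0.434). With the 2-fold minimum, the negative binomial test called 99 genes in all (0.622%). At an unadjusted p under 0.05 the binomial test gave 4 members and the negative binomial test 2 (Junb and Egr1). The share of all genes under that unadjusted p is not given here, so these counts cannot be weighed against it.

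**Figure D2:**
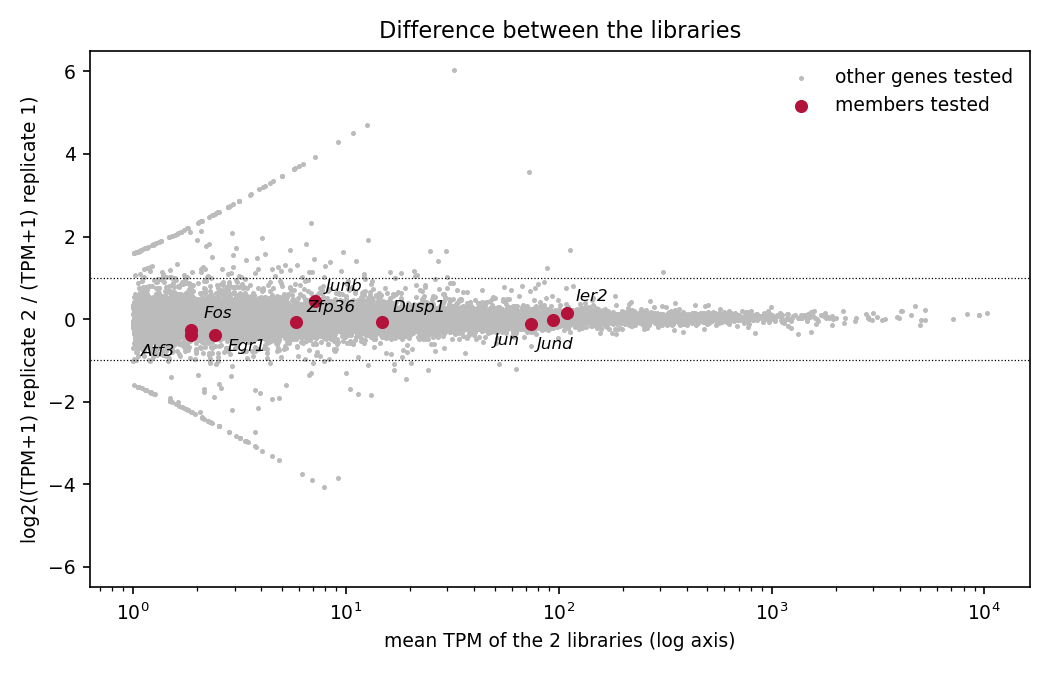
Difference between the libraries, as log2 of (TPM + 1) in replicate 2 over replicate 1, against mean TPM (log axis), for the 15926 genes tested (grey) and the 9 members tested (red). Dotted lines mark 2-fold of TPM + 1, whereas the rule used the ratio of TPM itself. All 9 members lie between the lines, from -0.39 for Atf3 to 0.43 for Junb.

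Of the members, 7 had the higher TPM in replicate 1 and 3 (Junb, Ier2 and Fosb) in replicate 2. The median log2 difference of the members tested was -0.07, beside 0.01 for all genes tested. Their median absolute difference was 0.14, beside 0.10 for all genes and 0.20 for genes at 1 to 3 TPM.

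The members differ in gene structure. Jun, Junb, Jund and Ier2 have a single exon in every coding entry, which holds for 2.72% of protein-coding genes at a mean of 1 TPM. For these 4, spliced and unspliced RNA cannot be told apart by the transcript entries. Jun, Jund and Ier2 have a single entry in M21, and the coding entry of Junb took all of its reads.

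Zfp36 was the one member whose second transcript held at least 25% of the gene's TPM in both libraries. Both its entries are coding. The entry of a single exon held 71.8% in replicate 1 and 53.3% in replicate 2, and the spliced entry of 2 exons held 28.2% and 46.7%. The spliced entry starts 998 nt upstream of the other. Its intron of 680 nt (chr7:28378494-28379173) lies wholly within the exon of the single-exon entry. The entries therefore differ both in their start and in whether this intron is kept, and the 24 coding bases of the first exon of the spliced entry are not coding in the other. The start of the single-exon entry lies 27 nt from the RefSeq start whose promoter is printed above. With M4, Zfp36 has 1 entry, of 1792 nt, shorter than either M21 entry (2790 and 2465 nt). It took 274 and 262 reads, against 292 and 284.75 for the gene with M21. The M21 shares therefore rest on the entries M21 lists, and how far they measure retention of the intron was not tested.

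In Egr1, Dusp1 and Atf3 one coding entry held most of the TPM in each library. The main entry of Egr1 held 91.4% of its TPM in replicate 1 and 92.4% in replicate 2. That of Dusp1 held 79.1% and 89.8%, and 2 retained-intron entries took 15.5% and 7.07% of the reads of Dusp1. The entries of Dusp1 that begin far upstream and stretch the gene entry had 0 reads. The main entry of Atf3 held 72.7% and 67.7%, and the second one was a non-coding entry (27.3%) in replicate 1 and a coding one (32.3%) in replicate 2. Fosb was split over 3 coding entries in replicate 1 (44.3%, 28.9% and 26.8%), and the first of them held 78.8% in replicate 2, on the 8 and 11 reads given above.

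**Figure D3:**
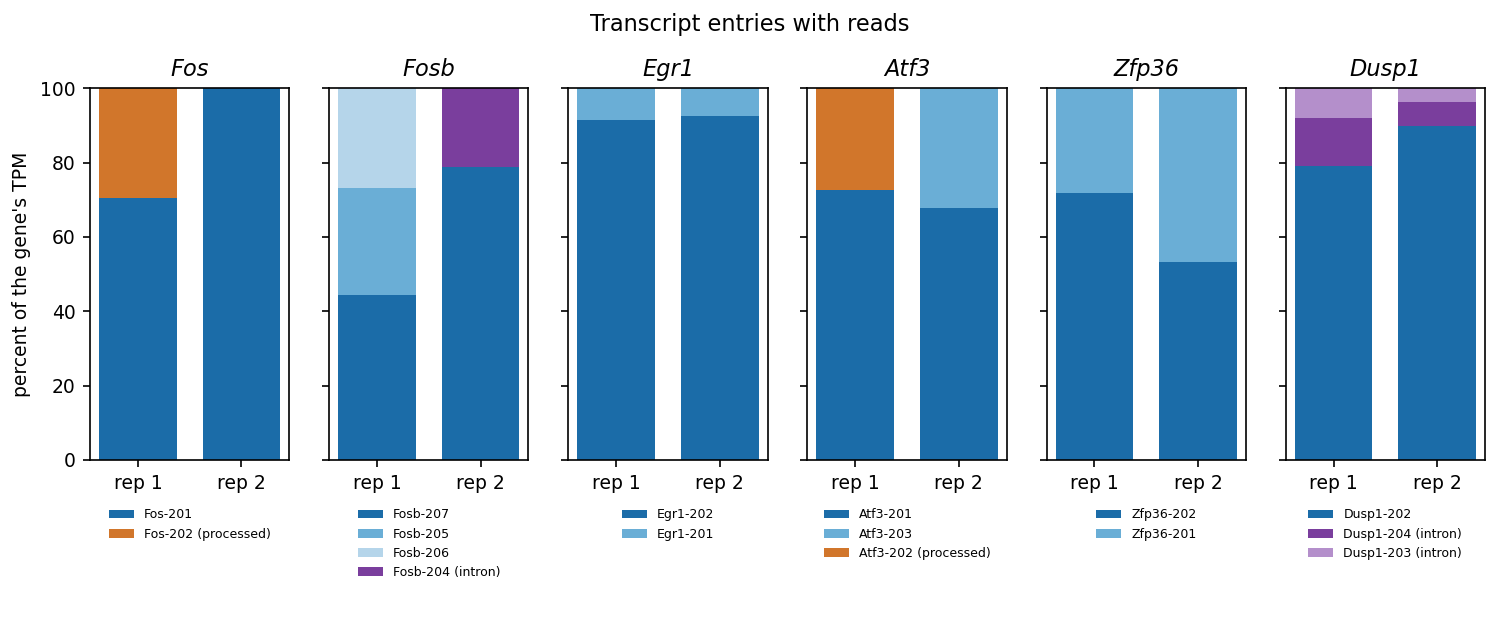
Percent of the gene's TPM held by each transcript entry with reads, in replicate 1 and replicate 2, for the 6 members with more than 1 entry with reads. Blue shades are coding entries, orange processed transcripts and purple retained introns. The Zfp36 panel holds 2 coding entries in both libraries, while the Fos, Fosb and Atf3 panels change entries between libraries.

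The level of Jund depended on the annotation more than that of any other member. Quantified by the authors with GENCODE M4, Jund stood at 46.99 ± 0.198 TPM, so that M21 gave 2.00 times the M4 level. The Jund entry is 1668 nt long in M21 and 2878 nt in M4. The RefSeq start lies 1210 nt before the M21 start, and the M4 entry is longer by the same 1210 nt. Reads assigned to Jund were 2934.92 and 2924.58 with M21 and 2453.61 and 2456.1 with M4. Gm11175, an antisense gene overlapping Jund, had 111.08 and 140.42 reads with M21 and 620.39 and 633.9 with M4. Reads of Jund and Gm11175 together were 3046 and 3065 with M21 and 3074 and 3090 with M4. With M4, Jun at 77.97 TPM stood above Jund, the opposite of the M21 order.

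The other members moved by less than 1.5-fold between annotations. Zfp36 moved most among them, to 8.42 TPM with M4, and Ier2 stood at 115.9 TPM. Antisense genes also overlap Jun (Junos, 1.47 and 2.16 TPM) and Zfp36 (Gm44710, 0.95 and 1.38 TPM). Whether counting used strand was not given in the sources used here, so that reads of these genes and of their antisense partners cannot be told apart.

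**Figure D4:**
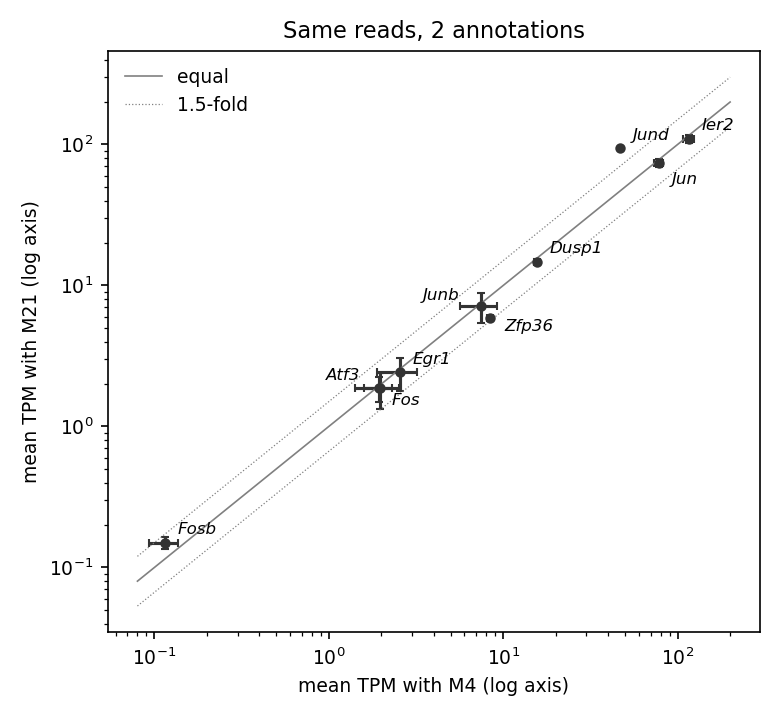
Mean TPM of each member with M21 against M4 (log axes), with bars of 1 SD over the 2 libraries. The solid line marks equal levels and the dotted lines 1.5-fold. Jund, at 94.1 TPM with M21 and 46.99 with M4, is the point beyond the dotted lines.

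Related genes were taken from 8 lists of 91 genes, of which 76 (83.5%) reached 1 TPM in both libraries. Of the 77 tested, 1 was called between libraries (1.30%, beside 1.02% of all genes) and 16 passed with no fold minimum (20.8%, beside 19.0%). The called gene was Wnt4, a Wnt ligand of the joint interzone, at 2.00 TPM in replicate 1 and 5.51 in replicate 2 (adjusted p = 1.41e-29 by the exact binomial test). No gene of the other 7 lists was called.

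Of the other AP-1 genes, 10 of 14 reached 1 TPM in both libraries. The most abundant were Atf4 (88.25 ± 1.56 TPM) and Atf2 (72.3 ± 1.92 TPM), both basic leucine zipper factors of the ATF group, and the lowest was Batf2 (0.0300 TPM, 1 read in each library). Of the other immediate early genes, 23 of 29 reached 1 TPM. The most abundant were the matrix protein gene Ccn1 (49.1 ± 3.28 TPM) and the kinase gene Sgk1 (37.2 ± 2.69 TPM), whereas Egr4 and the neuronal factor Npas4 had 0 reads. The median of all 29 was 5.89 TPM, beside 3.88 for all protein-coding genes and 22.4 for those at 1 TPM in both libraries.

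RNA of the upstream machinery was detected throughout. All 18 upstream factors and kinases reached 1 TPM, with a median of 31.2 TPM. The MAP kinase kinase gene Map2k2 (177.3 ± 7.74 TPM) was the most abundant, and the kinase gene Rps6ka3 (3.82 ± 0.665 TPM) the lowest. Of the MAP kinase phosphatases, 8 of 9 reached 1 TPM, led by Dusp6 (94.2 ± 1.34 TPM) and Dusp7 (44.4 ± 3.53 TPM), with Dusp8 the lowest (0.755 ± 0.0778 TPM). Of the Zfp36 family, Zfp36l1 (67.2 ± 4.08 TPM) and Zfp36l2 (23.9 ± 2.32 TPM) passed, and Zfp36l3 had 0 reads.

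Stress-response lists were mixed. Of the heat shock genes 6 of 7 reached 1 TPM, led by Hspa8 (1937 ± 0.184 TPM) and Hsp90aa1 (663.4 ± 18.3 TPM). Inducible Hspa1b, a near copy of Hspa1a with which it may share reads, had 7.98 and 0 reads. Of the integrated stress response genes 5 of 6 did, led by the amino acid enzyme gene Asns (61.8 ± 0.311 TPM) and Ddit3 (15.2 ± 0.856 TPM), with Chac1 at 0.445 ± 0.120 TPM. Of the joint interzone genes 4 of 5 did, led by the growth factor gene Gdf5 (49.5 ± 4.46 TPM) and Erg (14.8 ± 1.39 TPM), with Wnt16 the lowest (0.945 ± 0.00707 TPM).

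**Figure D5:**
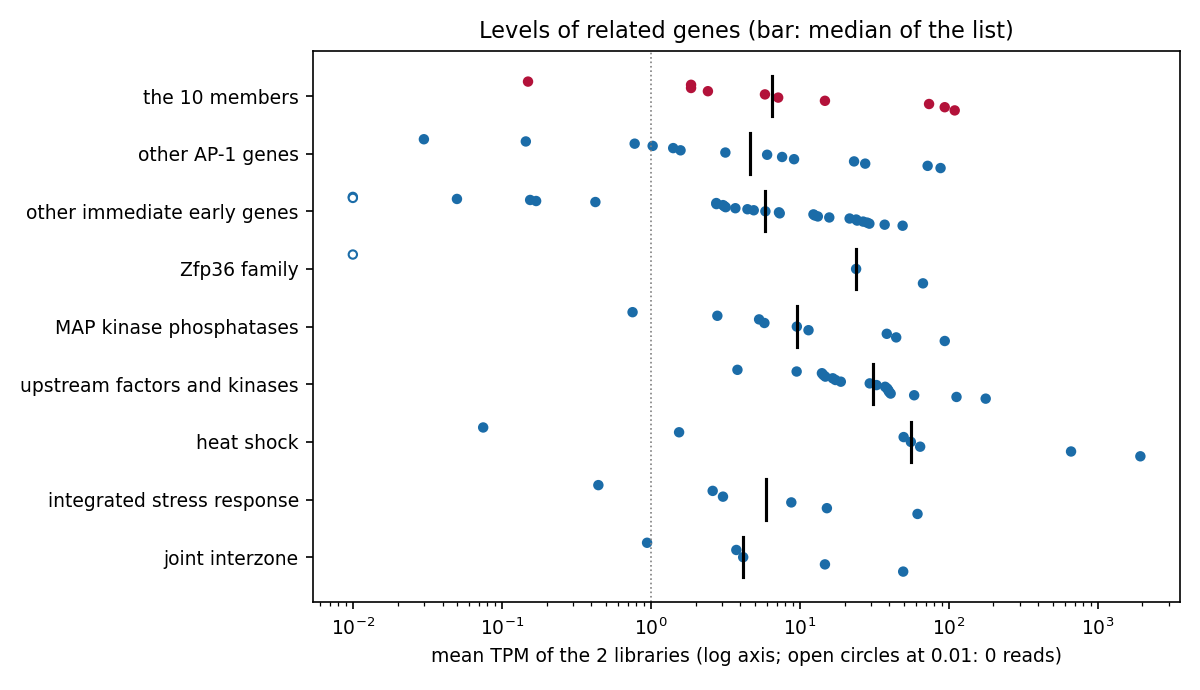
Mean TPM (log axis) of the 10 members (red) and of the genes of 8 related lists (blue), 1 point per gene. Black bars are list medians, open circles are genes with 0 reads drawn at 0.01, and the dotted line is 1 TPM. The 18 upstream factors and kinases all lie above 1 TPM, with a median of 31.2, while the members' median is 6.51.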

How the data were processed

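PolyA plus RNA of 2 pools of limbs was measured, 1 library per pool, and the replicate numbers come from the labels. The deposited expected counts, for genes and for transcripts, are the authors' estimates and need not be whole; per the file headers the columns are those of RSEM. TPM and FPKM, also deposited by the authors, are scaled for effective length and depth, and FPKM was an alternative here. The percent of its gene that each transcript holds was deposited by the authors. Each library was quantified with GENCODE M21 and M4 on mm10, and M21 was the main one. The aligner, program version and strand handling stay not given in the sources used here.

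Symbols and coordinates are from GENCODE M21, in which all 55536 gene IDs were found. For Ddit3, which has more than 1 ID, the lower ID was used. Genes at a mean of 1 TPM (15926) were tested with the exact binomial test, two-sided, of expected counts rounded to whole numbers, with TMM sizes from edgeR 4.0.16, adjusted by Benjamini-Hochberg over all of them. TMM effective sizes were 29699119.9 and 30052292.4 reads. Log ratios used a pseudocount of 1 TPM unless between genes, which understates changes of low genes. The spread for gene pairs was read from genes at 1 TPM or more, also for Fosb. Intervals are 95% exact Poisson on reads and cover counting error only, as do limits of 3 reads where a gene had none. Library sizes exclude tRNAs and spike-ins. Motifs were searched in RefSeq promoter windows and in M21 3′ UTRs of each gene's main coding transcript. The binomial test was also run on simulated data, with changes planted only in genes above a minimum count. Its rate of false calls there is not given here. The members were named by gene family and not by a measured level, but they and the lists were chosen with earlier results of these data known. Named list genes are the 2 most abundant, the lowest and any called gene of each list, plus relatives of the members and the overlapping antisense genes. A gene that this rule names is not reported here. Junos, Gm11175, Gm44710, Tbx5, Pitx1, Alb, Nkx2-5, Tubb3, Stmn2, Dcx, Hspa1a, Ier5 and Atf4 were also named for their relation to a member or marker list. Alternatives were other minima, scalings with DESeq2 1.42.0 and total counts, M4, FPKM, counts without length, a negative binomial test, other spreads and either library alone.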

Additional observations from a re-analysis of the deposited data

How the results depend on the processing

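No paired analysis was possible because there is 1 group. With no fold minimum, 4 members differed between libraries in place of 0, and in the 7 other alternatives 0 did. All 7 kept the 2-fold minimum. The largest TPM ratio of a member with M21 was 1.52-fold (Atf3), so other scalings, filters or tests could not change the 0. With the 99th percentile as the spread, 2 of the 9 neighbouring pairs passed in place of 4, and 4 to 6 passed in the others. The pairs compared were not always the same. From counts not divided by length Jun was the highest member, 1.46-fold above Ier2. With M4 the order was Ier2, Jun and then Jund. The log2 ratio of the Jun to the Fos family was 5.79, and 5.32 from counts not divided by length, 5.09 with M4 and 6.45 with Fos and Fosb alone. With M4, 0 members had a second transcript of 25% in place of 1. Zfp36 has only 1 entry in M4, so it could not pass there. Single libraries gave 2 (without replicate 1, Atf3 added) to 4 (without replicate 2, Fos, Fosb and Atf3 added). Members at 1 TPM numbered 6 to 9 over the alternatives, 6 at a minimum of 5 TPM and 8 with FPKM. Related genes at 1 TPM numbered 58 to 80, in place of 76, under alternatives chosen after seeing the data. All 40 recomputed log2 differences of members between libraries kept their sign. Those with another pseudocount could not change it, and those with M4 came from the same reads. Rescaling TPM without the mitochondrial genome and spike-ins raised the members' means 1.09-fold. Depth limits Fosb most, at 8 and 11 reads, and Fos and Atf3 rest on 55 to 66.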
